A study of Mus musculus with 10 samples.

Results

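The genes described here are 10 regulators of the G2 phase and of mitosis: the cyclins Ccna2, Ccnb1 and Ccnb2, the kinases Cdk1, Plk1 and Aurka, the checkpoint kinases Bub1 and Bub1b, and Cdc20 and Ube2c of the ubiquitin pathway that ends mitosis. They were chosen by name, and every probe set that the platform annotation pairs with 1 of these symbols alone was taken. Of the 10 genes, 9 had such a probe set, 16 probe sets in all among the 45101 of the array. Ccnb1 had none and so has no array values here. All 9 genes were tested among 12736 genes, and 14 of their 16 probe sets passed the filter on dim signal.

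The study measured liver RNA of 10 mice on Affymetrix 430 2.0 arrays, 1 mouse per array. In the 5 mice labelled dn-cJun (replicates 16 to 20) an adenovirus supplied a dominant negative form of cJun, which in its intact form is part of AP-1, a transcription factor. In the 5 control mice (replicates 11 to 15) an adenovirus supplied GFP, a fluorescent protein. Both groups are labelled ApoE-/-, both carried an adenovirus, and the sources used here give no age, sex, viral dose, time after infection, promoter in the virus or liver cell type that took it up.

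Cyclins are proteins whose levels rise and fall through the cell cycle, and which switch on their partner kinases. Cdk1 with an A or B cyclin drives a cell into mitosis. Plk1 and Aurka are needed to build the spindle. Bub1 and Bub1b hold anaphase back until every chromosome is attached, by restraining Cdc20, the activator of the anaphase-promoting complex. With the conjugating enzyme Ube2c, that complex marks the mitotic cyclins for destruction. In adult liver most hepatocytes are quiescent, and these transcripts rise when liver cells enter division, as after partial hepatectomy.

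Several arrays stood apart or went against their labels. Apoe, labelled as lost in every mouse, had a log2 signal of 15.66 ± 0.21 in the arrays labelled dn-cJun and 10.25 ± 0.59 in the control arrays (SD, n = 5 each), a log2 difference of 5.41, so the group is called "labelled dn-cJun" here. The groups did not overlap for Apoe. In every difference below, a part of Apoe status and a part of the dn-cJun virus cannot be told apart. Jun had a log2 difference of -0.07 (SE 0.17, limma adjusted p = 0.890) and does not check the virus. Xist, the noncoding RNA that coats the inactive X, was at 5.96 to 6.63 in the arrays labelled dn-cJun, against 13.71 and 13.63 in controls 14 and 15 and 5.90 to 6.72 in controls 11 to 13. The Y-linked gene Eif2s3y was at 10.58 to 11.13 in the arrays labelled dn-cJun, against 5.22 and 4.08 in controls 14 and 15 and 10.99 to 11.06 in controls 11 to 13. By Xist and Eif2s3y, controls 14 and 15 read as female and all the other arrays as male, though the sources used here give no sex. Control 11 was the array whose extraction entry names Trizol, where the entry of the other 9 names only Affymetrix, and it had the highest median deposited intensity, 127.5 against 85.3 to 104.1 on the other arrays. The differences of the 9 genes and the medians of the mitotic lists are therefore also given without controls 14 and 15 and without control 11. Of the hepatocyte markers, 9 of 9 measured were above the filter on dim signal.

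Signals are given as log2(intensity + 16) after quantile normalization, and differences as arrays labelled dn-cJun minus control on that scale, with the adjusted p of limma over all 12736 genes and a threshold of 0.05. The filter lay at a log2 signal of 6.06, and the 9 genes were above it on every array, down to 6.97 for Bub1 in dn-cJun 20. All 9 genes had a lower mean in the arrays labelled dn-cJun, as 49.7% of all genes tested did, and 1 of the 9, Ccnb2, passed the threshold as lower, where 0.432% of all genes did. The log2 differences of the 9 genes ran from -0.87 (Cdc20) to -0.29 (Cdk1) with a median of -0.53, beside a median of 0.0015 over all genes tested. At an unadjusted p under 0.05, 7 of the 9 were lower (all but Bub1 and Cdk1), where 7.47% of all genes were. The groups did not overlap in 1 of the 9 genes, Ccnb2, beside 2.13% of all genes that did not overlap and were lower. In RNA from whole liver, fewer dividing cells and less of these RNAs per cell cannot be told apart.

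**Figure D1:**
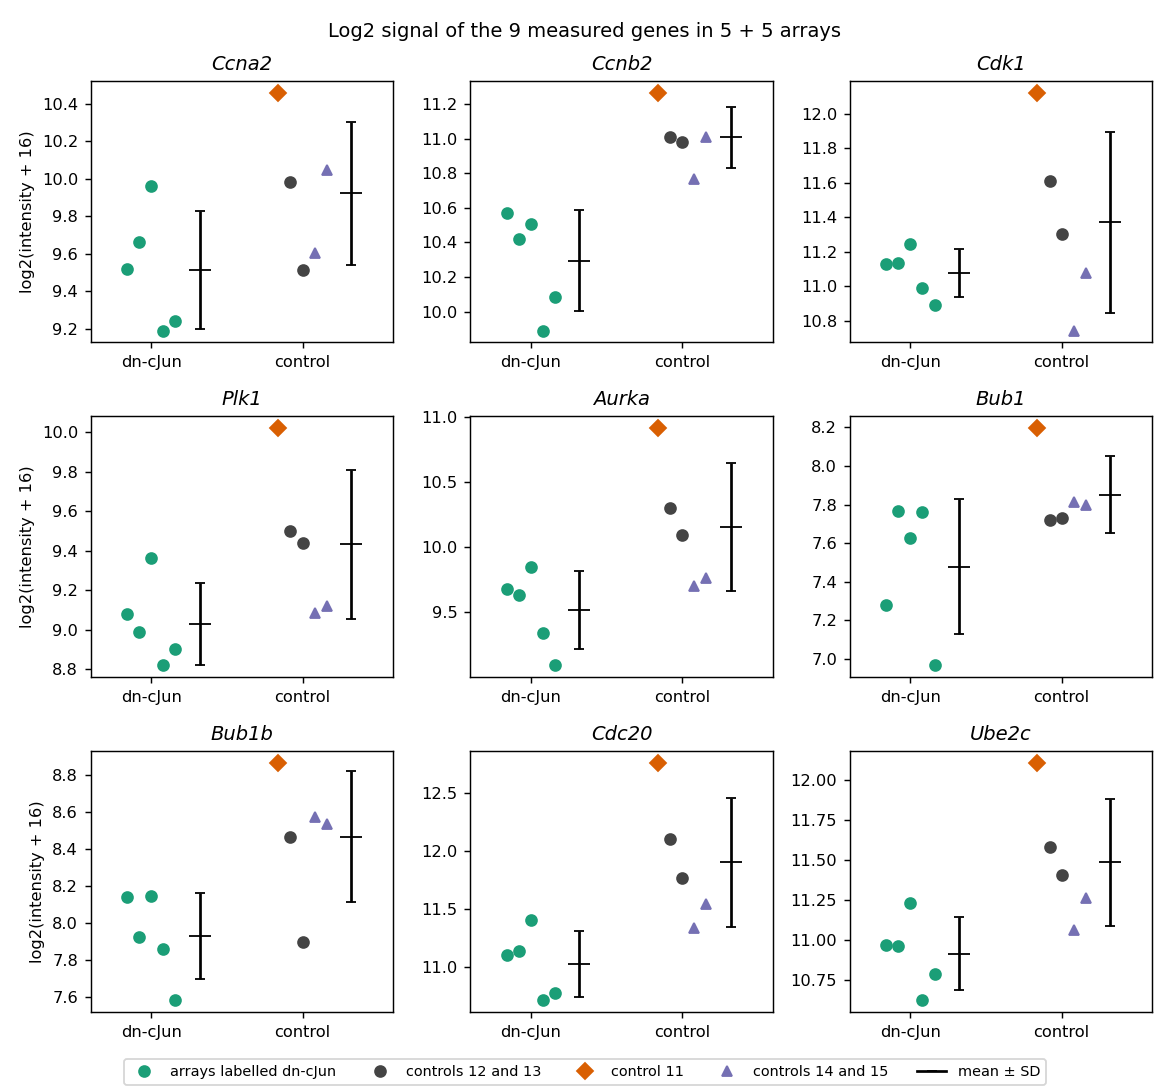
Log2(intensity + 16) after quantile normalization (vertical axis) for the 9 measured genes, 1 panel each, in the 5 arrays labelled dn-cJun (left) and the 5 control arrays (right), with the mean and SD of each group. Control 11 (diamond) is the highest of the 10 arrays in all 9 panels, and Ccnb2 is the gene whose groups do not overlap.

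Promoter sequence is shown for 4 genes that span the results: Ccnb2, the gene that passed the threshold, Cdc20 and Cdk1, which had the largest and the smallest difference by each gene's brightest probe set, and Bub1, which has a variant of the motif the others share. Mitotic genes are known to carry a cell cycle homology region (CHR), bound by the MuvB core of the DREAM complex, which represses them in resting cells, and CCAAT boxes, bound by NF-Y. The stretches run 5′ to 3′ on the gene's strand from 120 bases before the annotated start to 50 bases after it (RefSeq, GRCm38.p6), and lie at chr9:70421505-70421674 (minus strand), chr4:118437294-118437463 (minus strand), chr10:69352863-69353032 (minus strand) and chr2:127831810-127831979 (minus strand). Capitals mark the CHR (TTTGAA), its variant TTCGAA and CCAAT boxes, each on either strand.
Ccnb2: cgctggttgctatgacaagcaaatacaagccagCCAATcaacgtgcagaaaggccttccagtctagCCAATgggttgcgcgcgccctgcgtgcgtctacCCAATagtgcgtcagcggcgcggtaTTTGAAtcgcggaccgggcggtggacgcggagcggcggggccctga
Cdc20: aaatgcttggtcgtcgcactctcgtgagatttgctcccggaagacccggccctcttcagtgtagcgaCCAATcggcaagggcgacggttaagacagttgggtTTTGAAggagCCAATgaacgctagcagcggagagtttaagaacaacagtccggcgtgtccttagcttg
Cdk1: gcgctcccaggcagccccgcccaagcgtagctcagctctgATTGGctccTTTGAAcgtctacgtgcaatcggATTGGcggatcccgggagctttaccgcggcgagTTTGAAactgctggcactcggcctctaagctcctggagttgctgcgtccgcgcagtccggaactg
Bub1: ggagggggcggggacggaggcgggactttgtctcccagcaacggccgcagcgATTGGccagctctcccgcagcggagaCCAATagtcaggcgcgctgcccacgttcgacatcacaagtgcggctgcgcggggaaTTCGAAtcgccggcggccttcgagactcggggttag

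A RefSeq promoter of 250 bases before to 50 bases after the start was at hand for 8 of the 9 measured genes, all but Ccna2. TTTGAA was found on either strand in 7 of these 8, and in 17.9% of all 32851 promoters of the table. Bub1 was the exception among these 8. TTCGAA, a variant searched after the sequences were seen, was found in Bub1 and in Bub1b, and in 1.56% of all promoters. CCAAT was found in 8 of the 8, and in 37.4% of all promoters. The promoter of Ccnb1, the gene without array values, had 0 matches to TTTGAA, 0 to TTCGAA and 2 CCAAT boxes. In Ccnb2 the CHR nearest the start began 4 bases after it, with CCAAT boxes at -87, -54 and -21. In Cdc20 the CHR began at -18, between CCAAT boxes at -53 and -8. In Cdk1 CHR matches began at -71 and -15, and in Plk1, Aurka and Bub1b the CHR began 30, 32 and 40 bases after the start. For Aurka and Bub1b the start used lies inside the gene's annotated span, not at its edge, so their distances depend on that choice. The AP-1 site TGACTCA, which binds Jun and Fos proteins, was found in 0 of the 8 and in 5.2% of all promoters, and TGACGTCA, which Jun and ATF proteins bind, in 0 of the 8 and in 1.79%. Among all these matches 1 pair overlapped, CCAAT boxes on opposite strands of Ube2c. These matches describe the letters in the windows and say nothing of whether a protein is bound there.

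**Figure D2:**
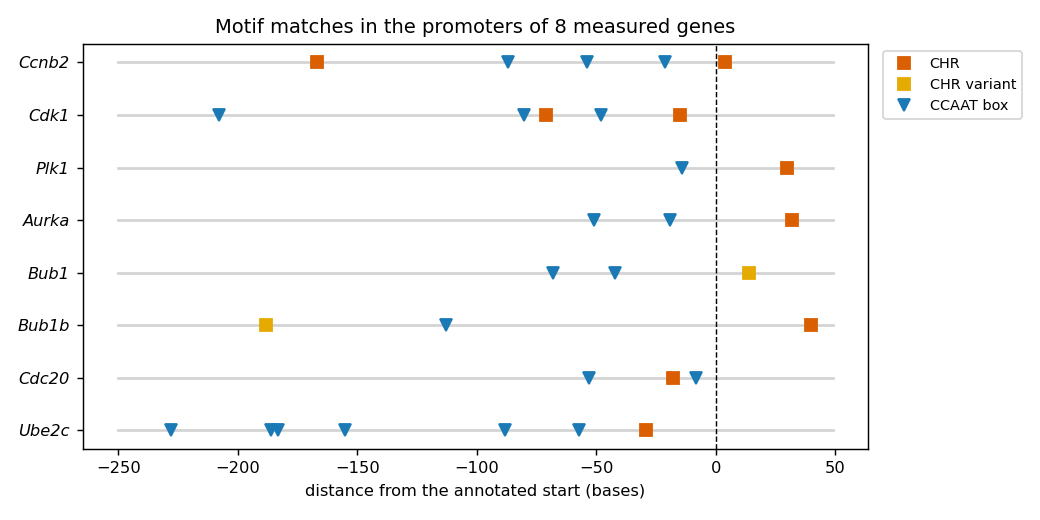
Matches to the CHR (orange squares), its variant (yellow squares) and the CCAAT box (blue triangles) in the promoters of 8 measured genes, against the distance of the first base of each match from the annotated start in bases. In 6 of the 7 genes with a CHR the match nearest the start lies downstream of every CCAAT box, and in Cdc20 it lies between its CCAAT boxes.

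Among the cyclins, Ccnb2, a B-type partner of Cdk1, was lower in the arrays labelled dn-cJun. Its log2 signal was 10.57, 10.42, 10.51, 9.89 and 10.08 in dn-cJun 16 to 20, against 11.27, 11.01, 10.98, 10.77 and 11.01 in controls 11 to 15. Every array labelled dn-cJun was below every control array. The mean was 10.29 ± 0.29 in the arrays labelled dn-cJun and 11.01 ± 0.18 in the control arrays (SD, n = 5 each), and Ccnb2 fell by 0.71 (SE 0.13, limma adjusted p = 0.0323), a 1.64-fold lower signal on the log2(intensity + 16) scale. The call depended on the arrays used. Ccnb2 was at -0.80 without controls 14 and 15 (SE 0.15, limma adjusted p = 0.0508) and at -0.65 without control 11 (SE 0.14, limma adjusted p = 0.0610), and the groups did not overlap in either case. Single arrays also ended it: without dn-cJun 17, 19 or 20 or control 13 or 15 the limma adjusted p was 0.0579, 0.0607, 0.0753, 0.0738 and 0.0606, at log2 differences of -0.74, -0.61, -0.66, -0.72 and -0.72.

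Ccna2, the A-type cyclin of S phase and G2, did not pass. It was at 9.52, 9.66, 9.96, 9.19 and 9.24 in dn-cJun 16 to 20, against 10.46, 9.98, 9.51, 9.60 and 10.05 in controls 11 to 15. The groups overlapped, with controls 13 and 14 inside the range of the arrays labelled dn-cJun. The log2 difference was -0.41 (SE 0.18, limma adjusted p = 0.326), -0.47 without controls 14 and 15 and -0.27 without control 11. A further Ccna2 probe set gave -0.34 (SE 0.13, limma adjusted p = 0.276 over all probe sets), -0.45 without controls 14 and 15 and -0.24 without control 11.

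With all 10 arrays, Cdk1, Plk1 and Aurka had a wider spread in the control group, which for Plk1 and Aurka rested on control 11. With control 11 left out, the control SD was 0.37 for Cdk1, 0.21 for Plk1 and 0.28 for Aurka. In the dn-cJun group the SD of these genes was 0.14, 0.21 and 0.30. Cdk1, the catalytic partner of the mitotic cyclins, was at 11.13, 11.13, 11.24, 10.99 and 10.89 in dn-cJun 16 to 20, against 12.12, 11.61, 11.30, 10.74 and 11.08 in controls 11 to 15. Controls 11, 12 and 13 were above every array labelled dn-cJun, control 15 lay inside that group's range, and control 14 was the lowest of all 10 arrays. The SD was 0.14 in the arrays labelled dn-cJun and 0.53 in the control arrays, and the log2 difference of -0.29 (SE 0.20, limma adjusted p = 0.522) was the smallest of the 9 by brightest probe set. With all probe sets of a gene averaged Bub1b was smallest, at -0.20. Without controls 14 and 15 Cdk1 was at -0.60 (SE 0.15, limma adjusted p = 0.113) and the groups did not overlap. Without control 11 Cdk1 was at -0.11 (SE 0.15, limma adjusted p = 0.798).

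Plk1, the polo-like kinase of mitotic entry, was at 9.08, 8.99, 9.36, 8.82 and 8.90 in dn-cJun 16 to 20, against 10.02, 9.50, 9.44, 9.09 and 9.12 in controls 11 to 15. The groups met at controls 14 and 15, which were within the range of the arrays labelled dn-cJun. The log2 difference was -0.40 (SE 0.17, limma adjusted p = 0.284). It was -0.62 without controls 14 and 15 (SE 0.16, limma adjusted p = 0.118), with no overlap, and -0.26 without control 11 (SE 0.13, limma adjusted p = 0.436).

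Aurka, the kinase of centrosomes and spindle poles, was at 9.68, 9.63, 9.85, 9.34 and 9.09 in dn-cJun 16 to 20, against 10.92, 10.30, 10.10, 9.71 and 9.77 in controls 11 to 15. Only dn-cJun 18 reached into the control range, above controls 14 and 15. For Aurka the log2 difference was -0.64 (SE 0.21, limma adjusted p = 0.175), a 1.56-fold lower mean. It was -0.92 without controls 14 and 15 (SE 0.20, limma adjusted p = 0.0677), with no overlap, and -0.45 without control 11 (SE 0.17, limma adjusted p = 0.256). A further Aurka probe set was below the filter, at 4.43 to 6.06 in the arrays labelled dn-cJun and 4.55 to 5.98 in the control arrays, and was not tested.

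In the brightest probe set of both checkpoint kinases controls 14 and 15 were above controls 12 and 13. Bub1b, which encodes BubR1, was at 8.14, 7.92, 8.15, 7.86 and 7.58 in dn-cJun 16 to 20, against 8.86, 8.46, 7.89, 8.57 and 8.53 in controls 11 to 15. Control 13 was inside the range of the arrays labelled dn-cJun and the other 4 controls were above it. The log2 difference was -0.53 (SE 0.18, limma adjusted p = 0.174), -0.48 without controls 14 and 15 and -0.44 without control 11. Bub1b had a further probe set at -0.40 (SE 0.28, limma adjusted p = 0.599 over all probe sets), which was at -0.74 without controls 14 and 15 and -0.21 without control 11. In that probe set control 14, at 6.85, was the lowest control. Bub1b also had one below the filter with a mean of 5.80 in the arrays labelled dn-cJun and 5.47 in the control arrays.

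Bub1, the kinase that recruits checkpoint proteins to the kinetochore, was at 7.28, 7.77, 7.62, 7.76 and 6.97 in dn-cJun 16 to 20, against 8.20, 7.72, 7.73, 7.82 and 7.80 in controls 11 to 15. Controls 12 to 15 lay between 7.72 and 7.82, and dn-cJun 17 and 19 reached the level of controls 12 and 13. For Bub1 the log2 difference was -0.37 (SE 0.18, limma adjusted p = 0.359), -0.40 without controls 14 and 15 and -0.29 without control 11. The further Bub1 probe set gave -0.55 (SE 0.30, limma adjusted p = 0.454 over all probe sets), -0.38 without controls 14 and 15 and -0.46 without control 11.

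By each gene's brightest probe set Cdc20 had the largest difference of the 9 genes, a rank that did not hold with its other probe sets, as given below. It was at 11.10, 11.14, 11.40, 10.71 and 10.77 in dn-cJun 16 to 20, against 12.76, 12.10, 11.76, 11.34 and 11.54 in controls 11 to 15. The groups overlapped by 1 array, since dn-cJun 18 was above control 14. The mean was 11.02 ± 0.28 in the arrays labelled dn-cJun and 11.90 ± 0.56 in the control arrays (SD, n = 5 each), a log2 difference of -0.87 (SE 0.22, limma adjusted p = 0.0953) and a 1.83-fold lower mean. Without controls 14 and 15, Cdc20 passed as lower at -1.19 (SE 0.21, limma adjusted p = 0.0357), with no overlap, and it was then the only 1 of the 9 that passed, where 0.306% of all genes passed as lower. Without control 11 it was at -0.66 (SE 0.16, limma adjusted p = 0.110).

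The 3 probe sets of Cdc20 did not all give the same picture. The values above are those of a probe set whose name ends in _x_at, which on this array type marks probes that can match other transcripts. The Cdc20 probe set without that ending gave -0.62 (SE 0.21, limma adjusted p = 0.210 over all probe sets), -0.89 without controls 14 and 15 (SE 0.20, limma adjusted p = 0.0841), and -0.44 without control 11. By that probe set Cdc20 came after Ccnb2 (-0.71) and Aurka (-0.64), and with all probe sets of a gene averaged it was at -0.39, after Ccnb2 (-0.71), Ube2c (-0.57), Bub1 (-0.46) and Plk1 (-0.40). The last one, also _x_at, gave 0.32 (SE 0.46, limma adjusted p = 0.822 over all probe sets), 0.08 without controls 14 and 15 and 0.31 without control 11, with 8.34 in dn-cJun 16 and 5.84 to 7.18 in the other arrays labelled dn-cJun, against 5.88 to 7.46 in the control arrays. Of the 14 probe sets tested it was the only one with a positive difference, and 13 were lower, where 50.8% of all probe sets were. With every probe set as the unit, 1 of the 14, that of Ccnb2, passed as lower (limma adjusted p = 0.0311), where 0.414% of all probe sets did.

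Ube2c, the ubiquitin-conjugating enzyme of the anaphase-promoting complex, was at 10.97, 10.96, 11.23, 10.62 and 10.79 in dn-cJun 16 to 20, against 12.11, 11.58, 11.41, 11.06 and 11.26 in controls 11 to 15. Of the arrays labelled dn-cJun, dn-cJun 18 alone was above a control array, control 14. The log2 difference was -0.57 (SE 0.17, limma adjusted p = 0.144), -0.79 without controls 14 and 15 (SE 0.16, limma adjusted p = 0.0580), with no overlap, and -0.41 without control 11 (SE 0.13, limma adjusted p = 0.197).

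**Figure D3:**
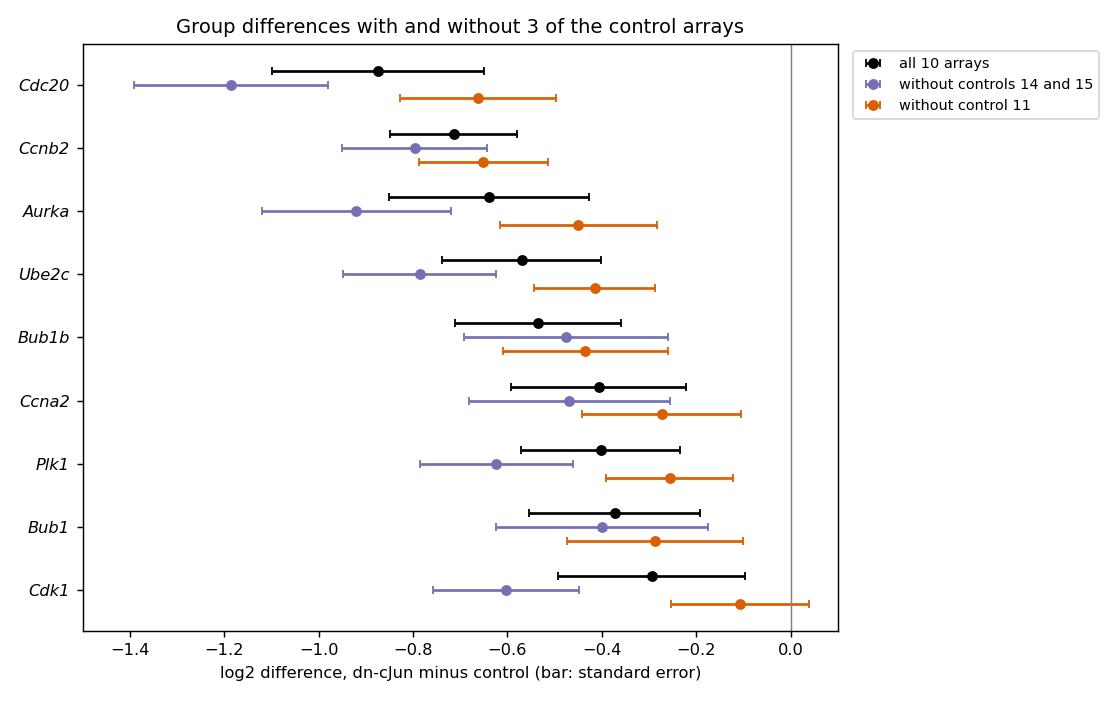
Log2 difference, arrays labelled dn-cJun minus control, with its standard error (horizontal axis) for the 9 measured genes, over all 10 arrays (black), without controls 14 and 15 (purple) and without control 11 (orange). All 27 points are below 0, from -1.19 for Cdc20 without controls 14 and 15 to -0.11 for Cdk1 without control 11.

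Leaving out controls 14 and 15 gave a larger difference in 8 of the 9 genes, all but Bub1b, and leaving out control 11 gave a smaller one in all 9. Without controls 14 and 15 the median log2 difference of the 9 was -0.62, all 9 were lower, as 48.8% of all genes were, 8 were lower at an unadjusted p under 0.05 (all but Bub1), as 6.62% of all genes were, and 6 genes did not overlap between the groups (Ccnb2, Cdk1, Plk1, Aurka, Cdc20 and Ube2c), where 4.85% of all genes did not overlap and were lower. Without control 11 the median was -0.41, all 9 were lower, as 50% of all genes were, no gene passed limma's threshold, where 0.236% of all genes passed as lower, and 5 of the 9 had an unadjusted p under 0.05, where 6.83% of all genes were lower at that p. The groups then did not overlap in 1 gene, Ccnb2, where 2.84% of all genes did not overlap and were lower.

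The 9 genes shared much of their order over the arrays. Control 11 was the highest of the 10 arrays for all 9, by 0.32 (Ccnb2) to 1.07 (Cdc20) above the mean of the other controls, with a median of 0.74, where the median over all genes tested was 0.0018. Among the arrays labelled dn-cJun, dn-cJun 18 was the highest for 7 genes, and the lowest was dn-cJun 19 for 5 and dn-cJun 20 for 4. Averaged over the 9 genes, each centred on its mean over 10 arrays, the log2 values were -0.19, -0.17, 0.015, -0.44 and -0.54 in dn-cJun 16 to 20, against 0.84, 0.34, 0.10, -0.06 and 0.11 in controls 11 to 15. The groups overlapped in this average, since dn-cJun 18 was above control 14. The SD over the control arrays was a median of 1.63 times that over the arrays labelled dn-cJun, where the median over all genes tested was 1.05. The ratio ran from 0.57 (Bub1) and 0.60 (Ccnb2) to 3.82 (Cdk1). Much of the wider control spread came with control 11. Without it the control SD was 0.37 (Cdk1), 0.33 (Cdc20), 0.32 (Bub1b) and 0.21 (Plk1). In the arrays labelled dn-cJun the SD of these genes was 0.14, 0.28, 0.23 and 0.21. For Ccna2, Ccnb2, Aurka, Bub1 and Ube2c the control SD was then below that of the arrays labelled dn-cJun.

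**Figure D4:**
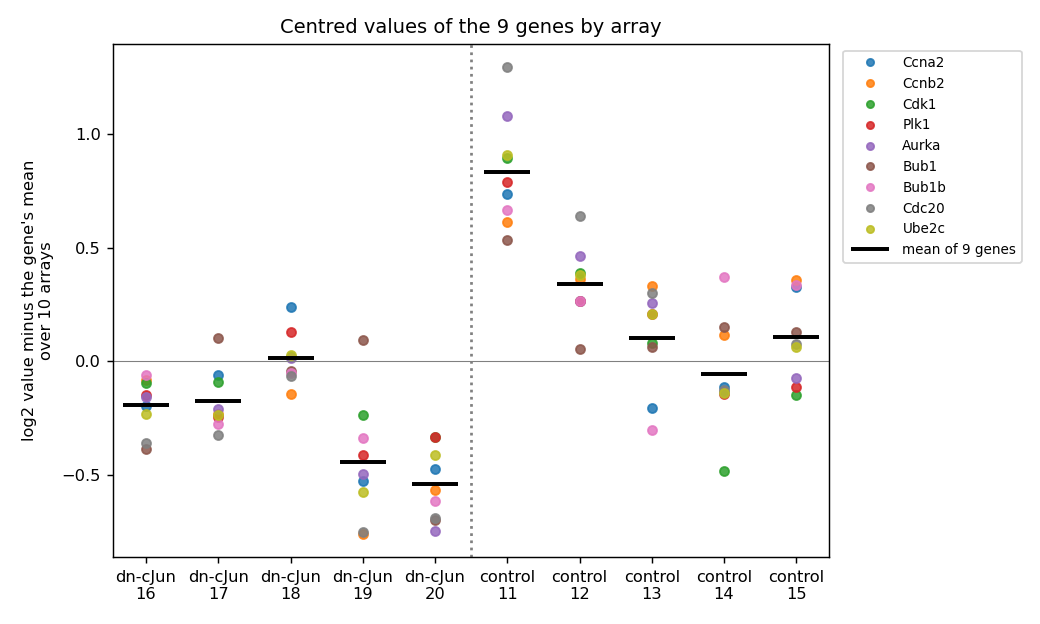
Log2 value minus the gene's mean over the 10 arrays (vertical axis) for each of the 9 genes (coloured points) and their mean (bar), by array, with the arrays labelled dn-cJun on the left. The mean is 0.84 in control 11 and between -0.54 and 0.34 in the other 9 arrays.

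In control probe sets for RNA quality, control 11 lay within the range of the other arrays, and it was the highest control for Actb. The part of RNA quality in its values was not tested. For Gapdh, the log2 signal of its 3 prime control probe set minus that of its 5 prime one was -0.52 to -0.35 in the arrays labelled dn-cJun and -0.51 to -0.40 in the control arrays, with -0.48 in control 11. For Actb it was 0.43 to 0.60 in the arrays labelled dn-cJun and 0.40 to 0.52 in the control arrays, with 0.52 in control 11.

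Markers of other liver cells were summed per array as normalized intensity, with each gene's brightest probe set. The sum of 10 macrophage and Kupffer cell markers was 20997 to 25012 in the arrays labelled dn-cJun and 23101.5 to 35292 in the control arrays, with 33048 in control 11, 35292 in control 14 and 31338 in control 15. Of the 9 of these tested, 6 had a lower mean and 3 a higher one (Marco, Vsig4 and C1qa, at 0.24, 0.05 and 0.03), with a median log2 difference of -0.15, and Timd4 was below the filter. Lyz2 and Cd5l passed as lower, at -0.70 (SE 0.13, limma adjusted p = 0.0294) and -0.57 (SE 0.11, limma adjusted p = 0.0323). Without control 11 neither passed (limma adjusted p = 0.0601 for Lyz2 and 0.0610 for Cd5l), and without controls 14 and 15 Lyz2 passed (limma adjusted p = 0.0367) and Cd5l did not (limma adjusted p = 0.105). The part of macrophages in the values of the mitotic genes was not tested. The sum of 8 neutrophil markers was 7199 to 27636 in the arrays labelled dn-cJun and 3740 to 31130 in the control arrays, with 10060 in control 11. The sum of 9 T and NK cell markers was 1640 to 2876 in the arrays labelled dn-cJun and 1431 to 2427 in the control arrays, and that of 8 erythroid markers was 4024 to 6326 in the arrays labelled dn-cJun and 3865 to 5488 in the control arrays, with 5488 in control 11, 3900 in control 14 and 3865 in control 15. Control 11 was thus the highest control for erythroid markers, as for the mitotic genes and for the cholangiocyte markers given below. Of the erythroid genes tested, 2 had a lower mean and 4 a higher one, with a median log2 difference of 0.25. The part of erythroid cells was not tested. In the neutrophil, T and NK cell and erythroid lists limma called no gene. At an unadjusted p under 0.05, 1 erythroid gene was higher, as 945 of all 12736 genes were. Cd3e and Cd4 of the T and NK list, Cxcr2 of the neutrophil list and Hba-a1 and Rhag of the erythroid list were below the filter.

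Sums for the remaining cell types overlapped between the groups, as did the sums above. For 7 B and plasma cell markers they were 5792 to 6724 in the arrays labelled dn-cJun and 5917 to 6955 in the control arrays. For 8 endothelial markers they were 6384 to 7304 in the arrays labelled dn-cJun and 6122 to 6799 in the control arrays. Stellate cell markers, 8 in all, summed to 8491 to 10193 in the arrays labelled dn-cJun and 8681 to 10185 in the control arrays. For 5 cholangiocyte markers, of which Cftr was below the filter, they were 292 to 553 in the arrays labelled dn-cJun and 409 to 504 in the control arrays, with 504 in control 11. Hepatocyte markers summed to 397729 to 422148 in the arrays labelled dn-cJun and 379363 to 408821 in the control arrays, and control 11 was the lowest of all arrays. Higher and lower means numbered 8 and 1 for hepatocyte markers (median log2 difference 0.02), 6 and 2 for endothelial and 5 and 2 for B and plasma cell markers. They numbered 3 and 5 for stellate cell and 1 and 3 for cholangiocyte markers. In these 5 lists limma called no gene. At an unadjusted p under 0.05, 2 hepatocyte, 1 endothelial and 1 B and plasma cell gene were higher, as 945 of all 12736 genes were. Lower at that p were 1 B and plasma cell, 1 stellate cell and 1 cholangiocyte gene, as 7.47% of all genes were.

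Other genes of G2 and mitosis were read from lists by role that leave out the genes above. For the counts of each list, 49.7% of all genes tested had a lower mean. At an unadjusted p under 0.05, 7.47% of all genes were lower. In 2.13% of all genes the arrays labelled dn-cJun were lower with no overlap between the groups. Genes of the spindle, cytokinesis and chromosome condensation had the lowest median of these lists: 28 of 29 tested had a lower mean in the arrays labelled dn-cJun, with a median log2 difference of -0.43. Limma called none of the 29, and 19 were lower and 0 higher at an unadjusted p under 0.05. Lower with no overlap between the groups were 4 of the 29, Prc1 and Ncaph among them. Prc1, which bundles microtubules of the central spindle, was at -0.68 (SE 0.18, limma adjusted p = 0.0994), and Tpx2, the activator of Aurka on the spindle, at -0.63 (SE 0.17, limma adjusted p = 0.108). Ncaph, a condensin subunit, was at -0.72 (SE 0.22, limma adjusted p = 0.151) and Cep55, which acts at the last step of cytokinesis, at -0.57 (SE 0.18, limma adjusted p = 0.153). The list's median was -0.59 without controls 14 and 15 and -0.32 without control 11.

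Of 24 tested genes of the spindle checkpoint and kinetochore, 21 had a lower mean, with a median of -0.26. Limma called none, and 9 were lower and 0 higher at an unadjusted p under 0.05. Mad2l1, which binds and inhibits Cdc20, had a signal of 10.53 ± 0.28 in the arrays labelled dn-cJun and 11.15 ± 0.31 in the control arrays (SD, n = 5 each), a log2 difference of -0.62 (SE 0.16, limma adjusted p = 0.0935). Cenpe, a kinetochore motor, was at -0.69 (SE 0.19, limma adjusted p = 0.113). It was the 1 gene of this list that was lower with no overlap between the groups. Cenpf, another kinetochore protein, was at -0.56 (SE 0.17) and Cenph, of the inner kinetochore, at -1.07 (SE 0.32), at limma adjusted p = 0.148 and 0.146. The list's median was -0.47 without controls 14 and 15 and -0.14 without control 11.

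The list of G2/M kinases, phosphatases and their regulators had 15 of 16 tested genes with a lower mean and a median of -0.23. Limma called none, and 5 were lower and 0 higher at an unadjusted p under 0.05. Lower with no overlap between the groups were 2 of the 16, Pkmyt1 and Plk4. Pkmyt1, a kinase that restrains Cdk1, was at -1.03 (SE 0.32, limma adjusted p = 0.153), with 5.96 in dn-cJun 19 and 7.57 to 7.96 in the other arrays labelled dn-cJun, against 8.07 to 8.75 in the control arrays. Plk4, the kinase of centriole duplication, was at -0.53 (SE 0.23), Nek2, a centrosomal kinase, at -0.52 (SE 0.23) and Melk at -0.52 (SE 0.22), each short of the threshold (limma adjusted p = 0.303, 0.315 and 0.298). The list's median was -0.41 without controls 14 and 15 and -0.13 without control 11.

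Genes of the anaphase-promoting complex and separase were nearer to 0, with 13 of 18 lower and a median of -0.10. Limma called none, and 4 were lower and 1 higher at an unadjusted p under 0.05. Lower with no overlap between the groups were 3 of the 18, Anapc5, Cdc23 and Anapc4. The complex's subunit genes Anapc5, Cdc23 and Anapc4 were at -0.31 (SE 0.08), -0.43 (SE 0.12) and -0.28 (SE 0.09), and Anapc1, also a subunit, at 0.27 (SE 0.11), at limma adjusted p = 0.0994, 0.133, 0.179 and 0.256. Without controls 14 and 15, 1 gene of this list passed as lower: Ube2s, which extends ubiquitin chains on targets of the complex, at -0.57 (SE 0.09, limma adjusted p = 0.0252), a gene singled out after its value was seen, and at -0.34 over all arrays (limma adjusted p = 0.268). The list's median was -0.17 without controls 14 and 15 and -0.08 without control 11.

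Regulators of these genes, from the DREAM complex, the E2F family and FOXM1, had 11 of 23 lower and 12 higher, with a median of 0.0018. Limma called none, and 2 were lower and 1 higher at an unadjusted p under 0.05, where 7.47% of all genes were lower. Rbl2, which encodes the pocket protein p130 of the DREAM complex, had a signal of 9.74 ± 0.11 in the arrays labelled dn-cJun and 9.45 ± 0.12 in the control arrays (SD, n = 5 each), a log2 difference of 0.29 with no overlap (SE 0.09, limma adjusted p = 0.155). Of all 12736 genes, 267 were higher with no overlap, and 0 genes of this list were lower with no overlap. Lin37 of the same complex was at -0.29 (SE 0.11, limma adjusted p = 0.238), Nfyb, a subunit of the factor that binds CCAAT boxes, at -0.18 (SE 0.09, limma adjusted p = 0.332) and the repressor E2f6 at -0.19 (SE 0.10, limma adjusted p = 0.406). The list's median was -0.14 without controls 14 and 15 and 0.03 without control 11.

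**Figure D5:**
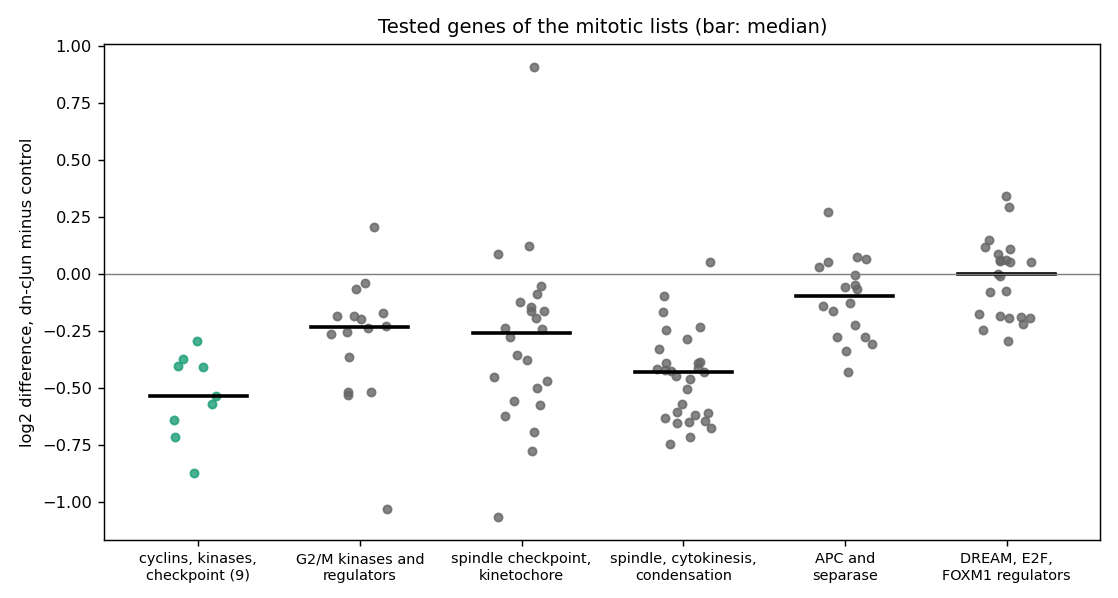
Log2 difference, arrays labelled dn-cJun minus control (vertical axis), of each tested gene in the described set (green) and in 5 lists of other mitotic genes and regulators (grey), with the median of each as a bar. The described genes are at a median of -0.53, the spindle list at -0.43 and the regulators at 0.0018.

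The genes most like the set over the arrays were found as those with the smallest root mean square difference, over the 10 arrays, between their centred log2 values and the average of the 9 genes. They were Cdca8, of the complex that holds Aurora B at centromeres, at 0.08, Cdca3 at 0.10, Cdca2 at 0.11, Mki67 at 0.11, Dlgap5 at 0.12 and Prc1 at 0.12, where the median over all genes tested was 0.45, and 4 of them (Cdca8, Mki67, Dlgap5 and Prc1) are also on the lists above. Of the 9 genes themselves, Ube2c was nearest to the average at 0.08 and Bub1 farthest at 0.26. Each of the 9 is part of that average, so these distances are not comparable with those of genes outside it. Mki67, the source of the proliferation marker Ki-67, had centred values of -0.05, -0.01, -0.15, -0.26 and -0.60 in dn-cJun 16 to 20, against 0.77, 0.25, 0.05, -0.09 and 0.09 in controls 11 to 15. It was at a log2 difference of -0.43 (SE 0.16, limma adjusted p = 0.222), -0.57 without controls 14 and 15 and -0.29 without control 11. The differences of the other 5 were -0.68 to -0.47, and none of the 6 passed limma's threshold.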

How the data were processed

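Each deposited column holds linear intensity, 1 value per probe set, from 1 array, per the labels from liver RNA with a biotin label on Affymetrix 430 2.0 arrays. The summary software and the scaling of the authors are not stated in the labels. The log2 scale used here is log2(intensity + 16). Before normalization the array medians spanned 0.50 on that scale, so arrays were quantile normalized (limma 3.58.1, R 4.3.3). For dim genes a difference on this scale is smaller than the true change.

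Of 45101 probe sets, 64 controls were left out, 34945 had 1 symbol in the platform annotation, 932 several and 9160 none listed. Entrez identifiers matched 99.4% of those with 1 symbol to the mouse gene table of GRCm38.p6, and no symbol changed. Where a gene had several probe sets the brightest on average stood for it, and genes under the 40th percentile of probe set means (log2 6.06) were left out, which left 12736 genes and, for the fit on every probe set, 27022 probe sets.

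The test was limma's, two-sided, from lmFit and eBayes (trend by intensity), and p-values were adjusted by Benjamini and Hochberg's method over all genes or probe sets and a threshold of 0.05. The fit was tested on simulated data whose noise was drawn separately for each gene and array. Those data held no rise shared by many genes on an array, like that of control 11, so they did not test for it. The 10 genes, the lists and the alternatives were chosen with earlier results of these data known. The genes named are the 10, up to 4 with the smallest p of each list of mitotic genes and regulators, the 6 most like the set, and the marker genes past the threshold. Each array holds a separate mouse per the labels, and their number limits the precision. Promoters came from RefSeq's table and figures were drawn with matplotlib. Alternatives were the deposited scale without normalization, array medians made equal, other pseudocounts and filters, other probe set rules, other variance models and arrays left out.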

Additional observations from a re-analysis of the deposited data

Results flagged for a closer look

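In 98 groups of 5 arrays, 8 single arrays lay far from the others of their group, where about 1 group in 20 is flagged by chance. Control 11 was high for Bub1, at 8.20 with the next array at 7.82, for Plk4, at 9.14 with the next at 8.23, and for Cenpe, at 8.96 with the next at 8.15. Plk4 was also low in dn-cJun 20, at 7.23 with the next at 7.71. Dn-cJun 19 was low for Pkmyt1, at 5.96 with the next array at 7.57, and for Ncaph, at 8.34 with the next at 8.93. Control 12 was high for the _x_at probe set of Cdc20 with the positive difference, at 7.46 with the next at 6.31, and low for Cd5l, at 13.05 with the next at 13.45.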

How the results depend on the processing

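All 9 genes kept a negative difference in each of 21 alternatives, and the median of the 9 stayed between -0.75 (values as deposited, where the median of all genes was -0.19) and -0.39 (all probe sets of a gene averaged). Ccnb2 passed in 13 of its 21 alternatives, at limma adjusted p = 0.0128 to 0.104, Cdc20 in 2 and Ube2c in 1. With the values as deposited 3 of the 9 were called lower (Ccnb2, Cdc20 and Ube2c), or 2 probe sets with every probe set as the unit, with 10 genes of the other mitotic and regulator lists and 468 lower and 22 higher among all genes. Equal array medians gave 20 higher genes, and averaging all probe sets of a gene gave 28 lower and 16 higher. Without the intensity trend in eBayes 0 of the 9 and 0 of their probe sets were called, with 5 lower and 4 higher genes, and array weights gave 85 lower genes. The main counts were 55 lower and 44 higher genes. Without controls 14 and 15, 13 genes were higher, and 1 gene of the other lists was lower. With each array left out in turn, the lower genes numbered 10 (without dn-cJun 17) to 102 (without control 12), the higher genes 3 to 97 for the same arrays, the called genes of the 9 and their called probe sets 0 to 1, and the median of the 9 was -0.59 to -0.41. The causes were not tested. No paired analysis was possible because the replicate numbers of the groups do not repeat. Probe sets below the filter, such as the dim ones of Aurka and Bub1b, or near it, such as the further one of Bub1, are limited by signal over background.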
